A study of Mus musculus with 16 samples.

Results

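The genes described here encode the constitutive 26S proteasome, its 20S core particle and its 19S regulatory particle, in dermal fibroblasts of female C57Bl/6 mice. They were taken by gene symbol from a list of 34 genes that leaves out the immunoproteasome subunits, with the probe set of highest mean level standing for each gene. Of the 34, 32 had a probe set named by 1 symbol, and all 32 were among the 14819 genes tested, out of 17097 genes so named on the array. No level of Psmc6 or Psmd10 was analysed here.

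Fibroblasts came from 4 young mice, 2 months old, and 4 old mice, 18 months old. Cells of each mouse were profiled at once after isolation, called in vivo in the labels and in vivo or fresh here, and again after a period in culture, which gives 4 groups of 4 arrays. Each array was hybridised with cDNA made from the RNA of 5000 cells and amplified over 23 cycles. No transgene or agent is named in the labels for any group, and the sources used here give neither the length nor the medium of the culture. The labels do not say which in vivo and cultured samples share a mouse, nor which mice were collected on the same day, so the arrays were compared as unpaired.

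The proteasome is the chamber in which eukaryotic cells degrade proteins tagged with ubiquitin. The barrel-shaped 20S core is built of outer rings of alpha subunits, which gate the entrance, and inner rings of beta subunits, some of which carry the proteolytic sites. The 19S particle caps the barrel: its base holds a ring of ATPases that unfold and thread the substrate, together with ubiquitin receptors, and its lid removes the ubiquitin chain. Fibroblasts in skin make and turn over the dermal matrix, and they are routinely expanded on plastic for experiments.

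Levels are log2 intensities as deposited, so that a difference of 1 is a 2-fold difference, and a level of 1 gene is not set against that of another because each probe set binds with its own strength. The number of arrays, 4 in each group, limits the precision, and intensities compress large differences. Member levels were well inside the measured range: the lowest group mean was 6.15, for Psmd9 in young in vivo cells, and 95% of the values of 12 spike-in control probe sets lay at or below 4.34. Arrays of 1 condition correlated at 0.977 to 0.996 over all probe sets, and arrays of different conditions at 0.879 to 0.913. Of 9 fibroblast markers 8 were measured, and none had a group mean below the controls. Their summed linear level ran from 23529 to 25840 on the in vivo arrays and from 11325 to 12721 on the cultured arrays. Among 12 macrophage markers, 5 lay below the controls in both in vivo groups, Adgre1 among them. Their sum was 524 to 859 in vivo and 276 to 333 in culture. Cd68 made most of that fall (8.09 in fresh and 5.50 in cultured young cells, 8.10 and 5.52 in old cells). Csf1r was lower in cultured young cells (7.53 and 6.63) and not in cultured old cells (6.455 and 6.505). A list of 5 skeletal muscle markers summed to 108 to 125 in vivo, to 948 to 1119 in young cultured cells and to 425 to 1062 in cultured old cells. Acta1 made that rise (4.66 in fresh and 9.92 in cultured young cells), while Ckm, Tnnt3, Mylpf and Myh4 had lower means in culture at both ages. Among the in vivo arrays, old replicate 1 stood apart, with a keratinocyte marker sum of 1443 where the other 7 lay between 409 and 525. Krt5, at 9.68, made most of that excess, and Krt14 (7.11) and Dsp (6.73) were also high. Krt10, at 6.65, was the lowest of its group. The melanocyte marker sum of that array, 679, was also high, with Mitf at 9.01, where the other in vivo arrays lay between 314 and 422. Old replicate 1 was also the array least correlated with its group. The 3′ minus 5′ level of the actin control, a measure of RNA integrity and amplification, was -0.41 ± 0.07 in fresh young cells, -0.46 ± 0.11 in fresh old cells, 0.07 ± 0.04 in cultured young cells and 0.10 ± 0.07 in cultured old cells (SD, n = 4 each). That of the Gapdh control was -0.08 ± 0.04 and -0.15 ± 0.02 in fresh young and old cells and -0.11 ± 0.06 and -0.15 ± 0.02 after culture, and its fresh arrays did not overlap between ages. The part that any of these markers or control values had in the proteasome results was not tested. In bulk RNA of this kind, fewer cells of a type and less RNA per cell cannot be told apart.

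The question of the series is how culture changes the transcriptome of fibroblasts and the differences between ages. Culture raised all 32 measured proteasome genes at both ages. Averaged over the ages, their median log2 change was 0.93, and the changes ran from 0.40 for Psmb4 to 1.73 for Psmd14. Across all genes tested, 34.8% rose in this comparison and the median change was -0.11. Among the 5636 genes whose mean level lay within the range of the members, 54.9% rose and the median was 0.30. In young cells all 32 members rose, against 32.6% of all genes, with a median of 1.10 and a range of 0.48 to 1.94. In old cells all 32 rose, against 30.2% of all genes, with a median of 0.78 and a range of 0.32 to 1.57. At least a 2-fold rise was measured for 19 members in young cells, where 14.9% of all genes reached it, and for 7 members in old cells, where 12.2% did.

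The arrays of cultured and in vivo cells did not overlap for 31 of 32 members in young cells, against 30.6% of all genes in that direction. They did not overlap for any of the 32 members in old cells, against 27.6% of all genes. The exception was Psmd13 in young cells, described with the lid below. When each array was summarised by the mean over its 32 members, young in vivo arrays stood at 9.07, 8.89, 8.74 and 8.85, and old in vivo arrays at 8.95, 9.14, 9.23 and 9.32. Young cultured arrays stood at 9.98, 9.99, 9.98 and 10.04, and old cultured arrays at 9.95, 10.02, 9.97 and 9.98. Every cultured array was above every in vivo array, and the cultured arrays of both ages lay together. The 75th percentile of all probe sets differed in the same direction, with 6.46 to 6.66 on the in vivo arrays and 6.73 to 6.85 on the cultured arrays, and its part in the rise was not tested beyond the scaling given below.

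**Figure D1:**
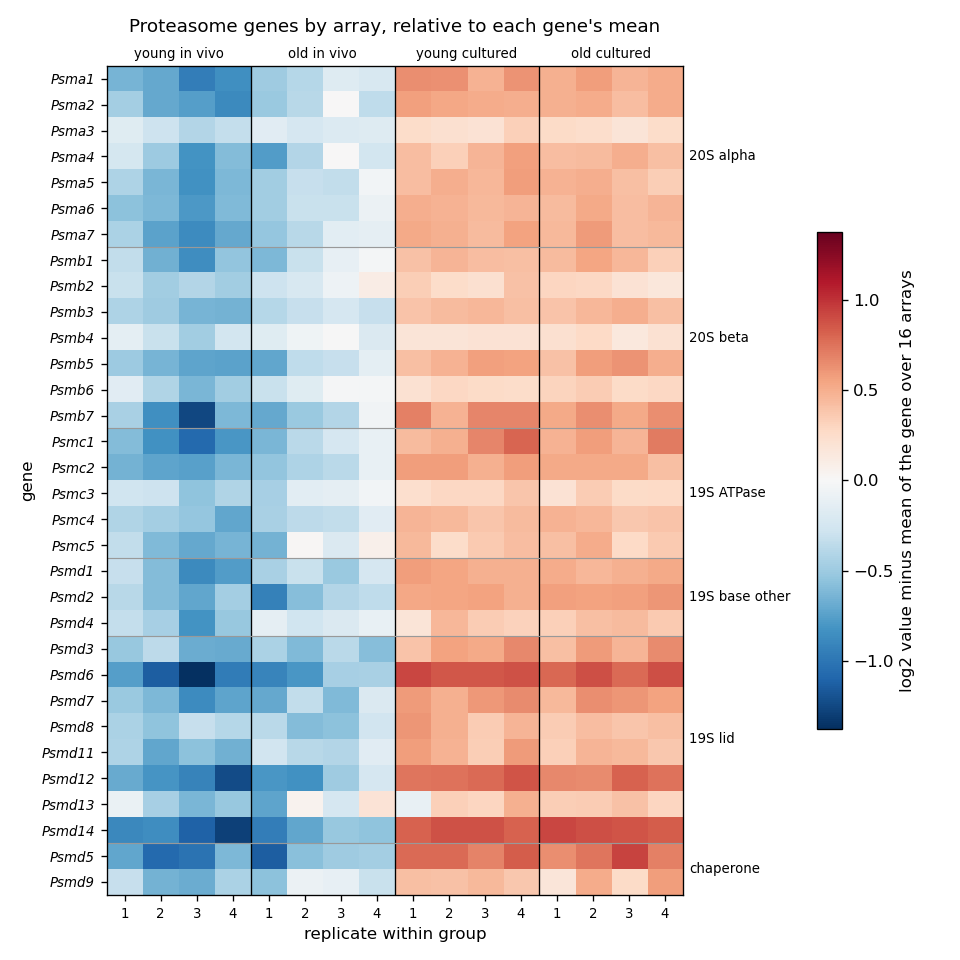
Each row is a proteasome gene and each column an array, with the colour giving the log2 level minus the mean of that gene over all 16 arrays, and genes ordered by role. The 8 cultured arrays lie above the gene mean and the 8 in vivo arrays below it for nearly every gene, with the strongest contrast in Psmd14 (1.73), Psmd6 (1.72), Psmd5 (1.52) and Psmd12 (1.504).

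The 250 bases before an annotated start of each gene were read from RefSeq (GRCm38.p6). This gave a window for 28 of the 34 genes, Psmc6 and Psmd10 among them. The start used was not always the outer end of the gene: Psma3 begins at 70969283 on chromosome 12 and its window at 70974373. Psma6 and Psmc2 had 2 windows each, and a gene was counted once if any of its windows held the word. Each window was searched on both strands for 3 short words linked to proteasome or general promoter control. The first was the core of the antioxidant response element, TGACNNNGC, to which Nfe2l1 and Nfe2l2 bind. The second was the CCAAT box, CCAAT, and the third was a core word of ETS factors, CCGGAAG. The antioxidant response element core was found in 5 of the 28 genes (17.9%). It was found in 11.5% of all 27025 genes with a window of the same length and in 12.0% of the 17492 protein-coding ones. CCAAT was found in 11 (39.3%), against 37.5% and 39.5%, and CCGGAAG in 9 (32.1%), against 7.83% and 10.2%. Over the 26 genes with a window and a measured level the counts were 4, 10 and 8. A match describes the letters only and is no evidence of binding. The windows printed here are those of 3 lid genes with strong rises, of a catalytic subunit with an antioxidant response element core, and of the gene that rose least. They are written 5′ to 3′ in the direction of the gene, in lower case with the matched words in capitals. Psmd14 (chr2:61711444-61711693, plus strand) holds CCAAT on the opposite strand, 159 bases before the start. In Psmd6 (chr14:14120946-14121195, minus strand), CCGGAAG lies 45 bases before the start. Psmd12 (chr11:107479278-107479527, plus strand) holds the antioxidant response element core at 247 bases and CCGGAAG at 17 bases before the start, both on the opposite strand. Psmb5 (chr14:54617996-54618245, minus strand) holds the antioxidant response element core 47 bases before the start, and Psmb4 (chr3:94886959-94887208, minus strand) holds none of the words. The printed windows do not stand for the whole set. Psmd5, which rose by 1.52 averaged over ages, holds none of the words. Psmb6, which rose by 0.555, holds an antioxidant response element core 9 bases before the start, and Psma3, which rose by 0.49, holds CCAAT. Whether the words go with the size of the rise was not tested.
Psmd14: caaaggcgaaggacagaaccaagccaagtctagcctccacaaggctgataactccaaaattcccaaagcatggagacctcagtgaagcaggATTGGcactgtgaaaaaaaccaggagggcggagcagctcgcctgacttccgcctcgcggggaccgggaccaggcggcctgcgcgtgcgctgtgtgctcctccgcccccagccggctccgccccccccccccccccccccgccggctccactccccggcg
Psmd6: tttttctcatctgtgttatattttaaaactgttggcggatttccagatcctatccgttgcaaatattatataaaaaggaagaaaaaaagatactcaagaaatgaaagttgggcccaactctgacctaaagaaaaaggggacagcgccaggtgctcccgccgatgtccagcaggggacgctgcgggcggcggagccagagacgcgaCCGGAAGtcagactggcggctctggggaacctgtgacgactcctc
Psmd12: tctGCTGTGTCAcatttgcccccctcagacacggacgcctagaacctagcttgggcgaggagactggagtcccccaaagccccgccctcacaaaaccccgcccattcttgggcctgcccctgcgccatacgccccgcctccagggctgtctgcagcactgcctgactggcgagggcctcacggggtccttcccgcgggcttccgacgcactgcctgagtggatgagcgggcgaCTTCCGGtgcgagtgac
Psmb5: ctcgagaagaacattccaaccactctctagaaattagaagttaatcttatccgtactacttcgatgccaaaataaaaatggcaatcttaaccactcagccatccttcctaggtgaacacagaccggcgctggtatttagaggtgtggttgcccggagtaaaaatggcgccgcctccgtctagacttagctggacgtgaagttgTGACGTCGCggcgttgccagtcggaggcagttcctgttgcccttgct
Psmb4: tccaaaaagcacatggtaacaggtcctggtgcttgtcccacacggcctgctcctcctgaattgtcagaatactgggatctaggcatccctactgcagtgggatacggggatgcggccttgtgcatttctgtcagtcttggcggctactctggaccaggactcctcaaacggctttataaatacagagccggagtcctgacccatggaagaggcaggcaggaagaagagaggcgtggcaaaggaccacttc

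The alpha ring, whose subunits form the gate of the core and the surface on which the 19S particle docks, rose in all 7 of its members, with a median log2 change of 0.94 averaged over ages. Psma1 and Psma2 rose most. Psma1 read 8.97, 8.91, 8.66 and 8.77 in young in vivo cells and 9.13, 9.22, 9.44 and 9.39 in old in vivo cells. In culture Psma1 read 10.26, 10.25, 10.10 and 10.24 in young and 10.11, 10.19, 10.08 and 10.13 in old cells. All 8 cultured values lay above the in vivo values, and within the in vivo arrays the 4 old values lay above the 4 young ones. The culture change of Psma1 was 1.39 ± 0.09 (SE, n = 4 against 4; limma, adjusted p = 6.7e-10) in young cells and 0.83 in old cells. Psma2 read 9.73, 9.50, 9.44 and 9.33 in young and 9.69, 9.82, 10.21 and 9.85 in old in vivo cells. In culture its values were 10.77, 10.74, 10.72 and 10.70 in young and 10.69, 10.71, 10.63 and 10.72 in old cells. The cultured values of Psma2 lay close together, all above those of fresh cells, and the changes were 1.23 in young and 0.80 in old cells.

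Psma3 and Psma4 rose least within the ring. Psma3 read 10.77, 10.65, 10.53 and 10.61 in fresh young cells, 10.78, 10.71, 10.75 and 10.76 in fresh old cells, 11.19, 11.16, 11.14 and 11.27 in cultured young cells and 11.20, 11.18, 11.12 and 11.19 in cultured old cells. The groups were separate but close, with changes of 0.55 and 0.42 in young and old cells. Psma4 read 8.89, 8.63, 8.31 and 8.53 in fresh young cells, 8.36, 8.73, 9.13 and 8.88 in fresh old cells, 9.56, 9.46, 9.60 and 9.70 in cultured young cells and 9.55, 9.57, 9.63 and 9.54 in cultured old cells. Its in vivo values spread widely at both ages and its cultured values did not, and the changes were 0.99 and 0.80. Psma5, Psma6 and Psma7, the other alpha subunits, rose by 1.12 to 1.19 in young cells and by 0.73 to 0.77 in old cells.

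The beta ring rose in all 7 of its members, with a median of 0.87. Its proteolytic subunits are Psmb6 (beta 1, caspase-like), Psmb7 (beta 2, trypsin-like) and Psmb5 (beta 5, chymotrypsin-like). Psmb5 read 9.43, 9.29, 9.21 and 9.20 in young and 9.22, 9.59, 9.62 and 9.80 in old in vivo cells. In culture it read 10.35, 10.42, 10.50 and 10.49 in young and 10.34, 10.51, 10.56 and 10.44 in old cells. Its lowest cultured value lay well above its highest in vivo value, that of old replicate 4, and the changes were 1.16 in young and 0.91 in old cells. Psmb6 read 9.92, 9.67, 9.45 and 9.60 in fresh young cells, 9.77, 9.91, 10.06 and 10.05 in fresh old cells, 10.29, 10.37, 10.34 and 10.33 in cultured young cells and 10.39, 10.43, 10.35 and 10.37 in cultured old cells. The cultured values of Psmb6 were nearly level and the changes, 0.67 and 0.44, were among the smaller ones. Psmb7 read 8.75, 8.36, 7.95 and 8.58 in fresh young cells, 8.50, 8.69, 8.80 and 9.15 in fresh old cells, 9.90, 9.68, 9.88 and 9.87 in cultured young cells and 9.72, 9.84, 9.72 and 9.84 in cultured old cells. Psmb7 spread widely between in vivo arrays and rose most of this ring in culture, by 1.42 in young and 0.995 in old cells.

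Psmb2 and Psmb4, beta subunits without a proteolytic site, rose least. Psmb2 read 10.64, 10.47, 10.55 and 10.47 in fresh young cells, 10.67, 10.73, 10.88 and 11.05 in fresh old cells, 11.29, 11.20, 11.17 and 11.35 in cultured young cells and 11.25, 11.24, 11.15 and 11.11 in cultured old cells. Its lowest old cultured value lay just above its highest old in vivo value, and the changes were 0.72 and 0.36. Psmb4 read 10.53, 10.36, 10.19 and 10.41 in fresh young cells, 10.50, 10.60, 10.66 and 10.47 in fresh old cells, 10.84, 10.84, 10.86 and 10.86 in cultured young cells and 10.89, 10.94, 10.81 and 10.87 in cultured old cells. The groups were separate, with changes of 0.48 and 0.32. The rise of Psmb4 did not pass the threshold at either age after cyclic loess scaling (0.13 with adjusted p = 0.0879 in young, 0.06 with adjusted p = 0.460 in old cells), nor in old cells when arrays were scaled to their 75th percentile (0.16, adjusted p = 0.0632). That of Psmb2 did not pass in old cells after cyclic loess (0.10, adjusted p = 0.278). Psmb1 and Psmb3, which complete the ring, rose by 1.03 and 0.98 in young cells and by 0.71 and 0.76 in old cells.

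**Figure D2:**
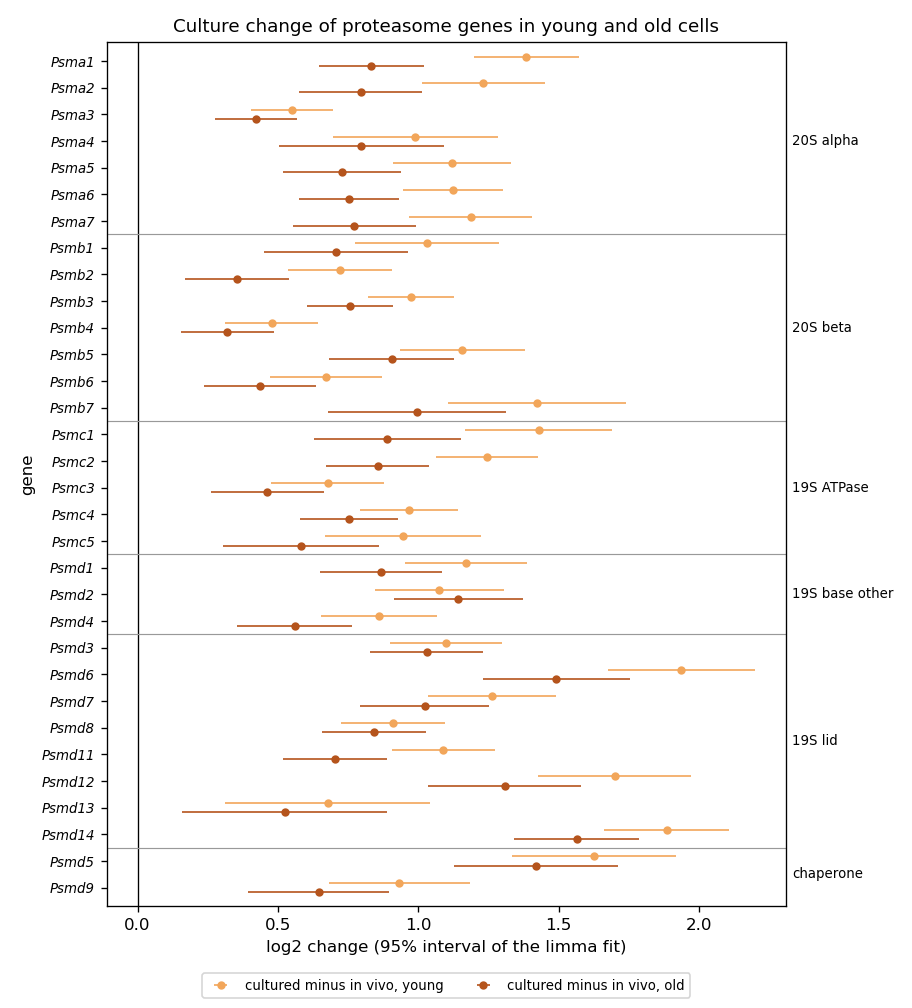
Points give the log2 change in culture, cultured minus in vivo, of each proteasome gene in young (light) and old (dark) cells, with bars for the 95% interval of the limma fit and genes grouped by role. All points lie above 0, from 0.32 for Psmb4 in old cells to 1.94 for Psmd6 in young cells, and the lid genes Psmd6, Psmd12 and Psmd14 and the chaperone Psmd5 lie farthest to the right.

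The ATPases of the base, which form the ring that unfolds substrates, rose in all 5 measured members, with a median of 0.86. Psmc1 read 8.98, 8.74, 8.50 and 8.77 in fresh young cells, 8.95, 9.21, 9.35 and 9.47 in fresh old cells, 10.01, 10.07, 10.25 and 10.38 in cultured young cells and 10.06, 10.15, 10.04 and 10.29 in cultured old cells. The cultured values stood apart from the in vivo ones, and the changes were 1.43 in young and 0.89 in old cells. Psmc2 read 9.70, 9.62, 9.60 and 9.72 in fresh young cells, 9.80, 9.92, 9.98 and 10.25 in fresh old cells, 10.93, 10.93, 10.84 and 10.92 in cultured young cells and 10.87, 10.87, 10.87 and 10.76 in cultured old cells. All 4 old in vivo values of Psmc2 lay above the 4 young ones and all cultured values above both, with culture changes of 1.25 and 0.86.

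Psmc3 and Psmc5 rose least of the ATPases. Psmc3 read 8.45, 8.44, 8.17 and 8.31 in fresh young cells, 8.26, 8.58, 8.60 and 8.69 in fresh old cells, 8.95, 9.01, 9.01 and 9.11 in cultured young cells and 8.92, 9.07, 8.99 and 9.0 in cultured old cells. Of its 4 old in vivo values 3 lay above all young in vivo values, and replicate 1 lay among them, and the changes were 0.68 and 0.46. Psmc5 read 8.80, 8.53, 8.43 and 8.49 in fresh young cells, 8.48, 9.15, 8.94 and 9.20 in fresh old cells, 9.58, 9.39, 9.50 and 9.56 in cultured young cells and 9.55, 9.65, 9.41 and 9.49 in cultured old cells. In old in vivo cells replicate 1 of Psmc5 lay well below the other 3 arrays, and the culture changes were 0.95 and 0.58. Psmc4 rose by 0.97 in young and 0.75 in old cells.

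The other base subunits are the scaffold proteins Psmd1 and Psmd2 and the ubiquitin receptor Psmd4. Of the scaffolds, Psmd2 binds ubiquitin-like domains and shuttling receptors. Psmd1 read 9.60, 9.32, 9.04 and 9.15 in fresh young cells, 9.47, 9.62, 9.41 and 9.69 in fresh old cells, 10.50, 10.47, 10.41 and 10.41 in cultured young cells and 10.43, 10.38, 10.41 and 10.44 in cultured old cells. Its young in vivo arrays were the most spread of the 4 groups, and the changes were 1.17 and 0.87. Psmd2 read 9.21, 8.99, 8.88 and 9.12 in fresh young cells, 8.66, 9.01, 9.19 and 9.24 in fresh old cells, 10.13, 10.14, 10.15 and 10.08 in cultured young cells and 10.16, 10.15, 10.16 and 10.20 in cultured old cells. Psmd2 was the only member whose estimated rise was larger in old cells, 1.14, than in young cells, 1.08, and its lowest value of all was that of old in vivo replicate 1. Without that array the order of the ages turned (a difference of -0.054), and under the other scalings 2 or 3 members rose more in old cells. Psmd4 read 8.43, 8.30, 7.93 and 8.23 in fresh young cells, 8.63, 8.48, 8.56 and 8.66 in fresh old cells, 8.94, 9.21, 9.11 and 9.07 in cultured young cells and 9.09, 9.17, 9.19 and 9.12 in cultured old cells. The 4 groups of Psmd4 stepped up from young to old in vivo and then to culture without overlap between those steps, and the culture changes were 0.86 and 0.56.

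The lid rose in all 8 members and held the strongest rises of the complex, with a median of 1.10. Psmd14 is the metalloprotease that cuts the ubiquitin chain from the substrate. It read 9.12, 9.15, 8.89 and 8.72 in fresh young cells, 9.05, 9.29, 9.49 and 9.45 in fresh old cells, 10.82, 10.89, 10.89 and 10.82 in cultured young cells and 10.93, 10.90, 10.87 and 10.84 in cultured old cells. Every cultured value of Psmd14 lay over 1 above every in vivo value. Its change was 1.89 in young (limma, adjusted p = 1.34e-10) and 1.57 in old cells, and the average over ages, 1.73 ± 0.07, ranked 730 of the 14819 genes. Psmd6, a scaffold subunit of the lid, read 9.0, 8.62, 8.38 and 8.79 in fresh young cells, 8.85, 8.96, 9.30 and 9.31 in fresh old cells, 10.68, 10.61, 10.61 and 10.64 in cultured young cells and 10.55, 10.65, 10.54 and 10.65 in cultured old cells. Its changes were 1.94 in young, the largest of any member at either age, and 1.49 in old cells. Psmd12, another scaffold subunit, rose by 1.70 and 1.31.

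Psmd8 and Psmd13, also scaffold subunits of the lid, rose less. Psmd8 read 10.10, 9.98, 10.22 and 10.14 in fresh young cells, 10.17, 9.94, 9.97 and 10.27 in fresh old cells, 11.15, 11.03, 10.89 and 11.01 in cultured young cells and 10.89, 10.96, 10.92 and 10.95 in cultured old cells. Its 2 ages overlapped within both conditions, and the changes were 0.91 in young and 0.84 in old cells. Psmd13 read 8.10, 7.73, 7.56 and 7.66 in fresh young cells, 7.46, 8.24, 7.96 and 8.38 in fresh old cells, 8.08, 8.52, 8.48 and 8.68 in cultured young cells and 8.53, 8.54, 8.59 and 8.48 in cultured old cells. It was the member whose groups overlapped, as young cultured replicate 1, at 8.08, lay just below young in vivo replicate 1, at 8.10. Its changes still passed the threshold, with 0.68 (limma, adjusted p = 0.00241) in young and 0.53 (adjusted p = 0.0145) in old cells. The old call was lost without old in vivo replicate 1 (0.34, adjusted p = 0.0549), with arrays set to their 75th percentile (0.37, adjusted p = 0.0553) and after cyclic loess (0.27, adjusted p = 0.152), and the young call after cyclic loess (0.33, adjusted p = 0.0762). Psmd3, Psmd7 and Psmd11, the remaining lid members, rose by 1.09 to 1.26 in young cells and by 0.71 to 1.03 in old cells.

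Psmd5 and Psmd9 are chaperones that help the base assemble and are absent from the finished particle. Psmd5 read 7.51, 7.15, 7.21 and 7.61 in fresh young cells, 7.09, 7.65, 7.74 and 7.76 in fresh old cells, 9.01, 9.01, 8.91 and 9.06 in cultured young cells and 8.87, 8.97, 9.16 and 8.92 in cultured old cells. All cultured values lay over 1 above all in vivo values, and the changes were 1.63 and 1.42. Psmd9 read 6.35, 6.02, 5.99 and 6.24 in fresh young cells, 6.11, 6.59, 6.56 and 6.37 in fresh old cells, 7.09, 7.08, 7.12 and 7.04 in cultured young cells and 6.84, 7.18, 6.94 and 7.25 in cultured old cells. Psmd9 rose by 0.93 and 0.65 with no overlap between conditions. Set side by side, the median change averaged over ages was 0.91 over the 14 subunits of the core, of which 4 rose at least 2-fold, and 1.03 over the 16 measured subunits of the base and lid, of which 9 did, against 13.3% of all genes. This difference between the parts of the complex was described over genes and not tested.

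Age was compared within each condition, on the 8 arrays of that condition. In fresh cells no member passed the threshold (limma, adjusted p under 0.05), where 1.35% of all genes did. At an unadjusted p under 0.05 there were 15 members of 32, against 2217 of the 14819 genes. The lowest adjusted p was 0.0747, for Psma1, whose old minus young difference was 0.47 ± 0.11. Of the 32 estimates 30 were above 0, against 53.0% of all genes, with a median of 0.29 and a range of -0.03 for Psmd2 to 0.50 for Psmc1. Members varied together between these arrays, as described below, so this is not a count of independent genes and adds no test of age. The median over all genes was 0.02, and over the genes in the level range of the members 0.12. By role, the medians were 0.36 for the alpha ring, 0.29 for the beta ring, 0.33 for the ATPases, 0.27 for the other base subunits and for the lid, and 0.22 for the chaperones. Psmc1, with the largest estimate among the probe sets used, had a standard error of 0.14 and an adjusted p of 0.115. The 4 old values lay above the 4 young values for 7 members, Psma1, Psma6, Psmb2, Psmb3, Psmc2, Psmd4 and Psmd11, against 5.8% of all genes. When the spread was estimated from all 16 arrays, 7 members passed in place of none, namely Psma1, Psma2, Psma6, Psma7, Psmc1, Psmc2 and Psmd4, and 6.07% of all genes passed in that fit. Cultured arrays varied less than in vivo arrays, so that this shared estimate is smaller than the spread of the in vivo arrays.

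The in vivo arrays of 1 age differed from each other in most members at the same time. Young replicate 1 was the highest of its group for 27 of 32 members and young replicate 3 the lowest for 21. Old replicate 4 was the highest for 22 and old replicate 1, the array with the high keratinocyte sum, the lowest for 24. The 75th percentile of all probe sets on the young arrays, 6.65, 6.57, 6.46 and 6.56, followed the order of their proteasome means, and on the old arrays, 6.60, 6.62, 6.66 and 6.64, it was highest in replicates 3 and 4. Single markers of other cells and of fibroblasts differed by age on the same arrays: Kcnj8, a pericyte marker, by 1.06 (limma, adjusted p = 0.0494), Csf1r, a macrophage marker, by -1.08 (adjusted p = 0.00995), and Col1a2 by -0.64 (adjusted p = 0.0493). Their lists did not move with them as a whole. Of 5 pericyte and smooth muscle markers tested, 4 were lower in old cells. Of 9 macrophage markers 6 were higher, and of 8 fibroblast markers 5 were lower and 3 higher. The sum over 5 pericyte and smooth muscle markers was 251 to 316 on the young and 314 to 557 on the old arrays. Kcnj8 made that rise (means of 7.17 and 8.23), while Rgs5, Myh11, Des and Notch3 had lower means in old cells. The sum over 8 endothelial markers was 295 to 379 and 338 to 686, with the highest in old replicate 4. Kdr (6.57 and 7.34) and Tek (6.32 and 6.99) made most of it, and over the 8 markers 4 estimates were above 0 and 3 below. Their part in the age difference of the proteasome genes was not tested. Without old replicate 1 the median age difference was 0.36, 31 of 32 were above 0, and still none passed. After subtraction of the group means, the median correlation between pairs of members over the 8 in vivo arrays was 0.629, and 92.3% of pairs were above 0. Over all genes the median was 0.009. Over the 8 cultured arrays the members' median was 0.143. These points share their arrays and their depth of amplification, and the values describe these arrays only.

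**Figure D3:**
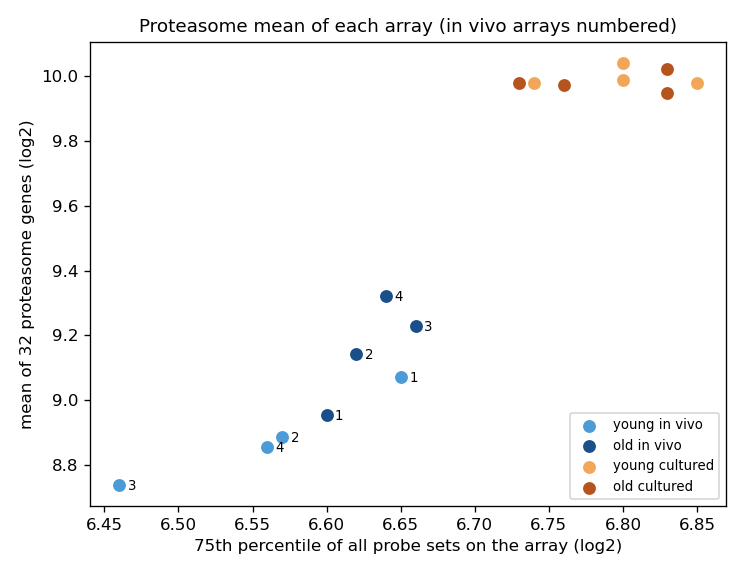
Each point is 1 array, with the mean log2 level of the 32 proteasome genes on the vertical axis and the 75th percentile of all its probe sets on the horizontal axis, coloured by group. The in vivo arrays spread from 8.74 to 9.32 in the proteasome mean, with old arrays mostly above young ones, while the 8 cultured arrays lie between 9.95 and 10.04 and at higher percentiles.

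In culture the ages lay together. No member passed the threshold for age in culture, where 0.0% of all genes did, and none had an unadjusted p under 0.05, against 533 of all genes. The old minus young estimates ran from -0.10 for Psmd11 to 0.10 for Psmd13, with a median of -0.02, and 10 of 32 were above 0, against 50.8% of all genes. Without young cultured replicate 4 the count was 17 and the median 0.0038, so the side of 0 rested on that array. The standard error of the difference had a median of 0.063 and ran from 0.054 to 0.116, and the 95% intervals of all members lay between -0.26 and 0.36. No member had groups that did not overlap, against 2.06% of all genes. The median SD of a member within a group was 0.06 in both cultured groups, 0.16 in young in vivo and 0.19 in old in vivo cells. After removal of the group means, the median residual SD of members was 0.189 in vivo and 0.0655 in culture, and that of all genes 0.185 and 0.129. Only 5636 of the 14819 genes lie in the level range of the members. Neither these SDs nor the correlations above were compared within that range.

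**Figure D4:**
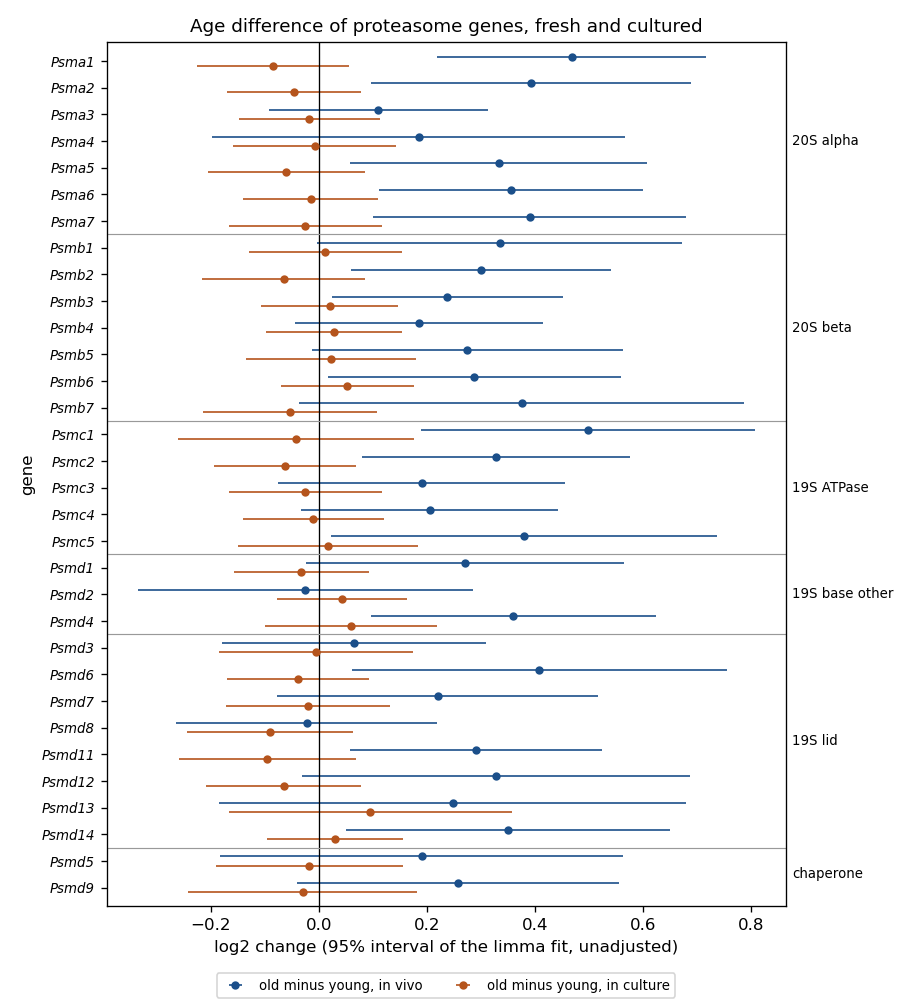
Points give the old minus young log2 difference of each proteasome gene in vivo (blue) and in culture (brown), with bars for the unadjusted 95% interval of the limma fit and genes grouped by role. The in vivo points lie mostly between 0.1 and 0.5 with wide bars, and the points in culture lie within 0.10 of 0.

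Whether the age difference changes with culture was tested as the interaction, the old minus young difference in culture minus that in vivo, which equals the culture change in old minus that in young cells. No member passed (limma, adjusted p under 0.05), where 0.587% of all genes did. At an unadjusted p under 0.05 there were 13 members, against 1823 of all genes. The estimate was above 0 for 1 member, Psmd2, at 0.07, against 47.2% of all genes, and the median over members was -0.30. Over all genes the median was -0.02, and in the level range of the members it was -0.13. Among the probe sets used, Psma1 had the largest interaction, -0.55 ± 0.13 with an adjusted p of 0.0621. Psmc1 followed with -0.54 ± 0.18 and 0.196. A second probe set of Psmb3 gave -0.725, as described below. The call of Psma1 depended on the processing: its adjusted p fell under the threshold in 6 of 25 alternatives, with a lowest value of 0.0269 without old in vivo replicate 1 and 0.0370 without young in vivo replicate 1.

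Other proteasome genes, outside the 34, did not all move with them. The 3 catalytic subunits of the immunoproteasome, which replace Psmb6, Psmb7 and Psmb5 in cells exposed to interferon and feed antigen presentation, all fell in culture, where 44.7% of all genes fell. Psmb8, the counterpart of Psmb5, read 10.50, 10.31, 10.04 and 10.33 in young in vivo and 10.85, 10.69, 10.45 and 10.47 in old in vivo cells. In culture Psmb8 read 6.65, 6.51, 6.28 and 6.55 in young and 6.28, 6.95, 6.53 and 6.55 in old cells. The conditions were far apart, and averaged over ages the change of Psmb8 was -3.92 ± 0.10, a 15.1-fold fall, while Psmb5 rose by 1.03 ± 0.07. Psmb10, the counterpart of Psmb7, changed by -2.17 ± 0.08, and Psmb9, the counterpart of Psmb6, by -1.59 ± 0.18. Psme1 and Psme2, subunits of the interferon-induced PA28 cap, also fell, by 1.59 and 1.13 on the log2 scale, while Psme3, which forms the nuclear PA28 cap, rose by 0.68. Among macrophage markers 8 of the 9 tested fell in culture, against the same 44.7% of all genes. Of the 12 measured, 10 had means below the controls in cultured young cells and 9 in cultured old cells. The fall was not particular to this list. It was shared by 7 of 8 fibroblast, 7 of 8 endothelial, 5 of 5 melanocyte, 4 of 4 T cell and 6 of 9 keratinocyte markers. The T cell changes were small, -0.286 to -0.165, and 3 of these genes had means below the controls in both in vivo groups. Among 4 leukocyte markers 3 fell and 1, Cd53, rose by 0.90, and among 4 skeletal muscle markers 3 fell and 1 rose. Of 5 pericyte and smooth muscle markers 2 fell and 1 rose. The part of any of these cell types in the fall of the immunoproteasome genes was not tested.

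**Figure D5:**
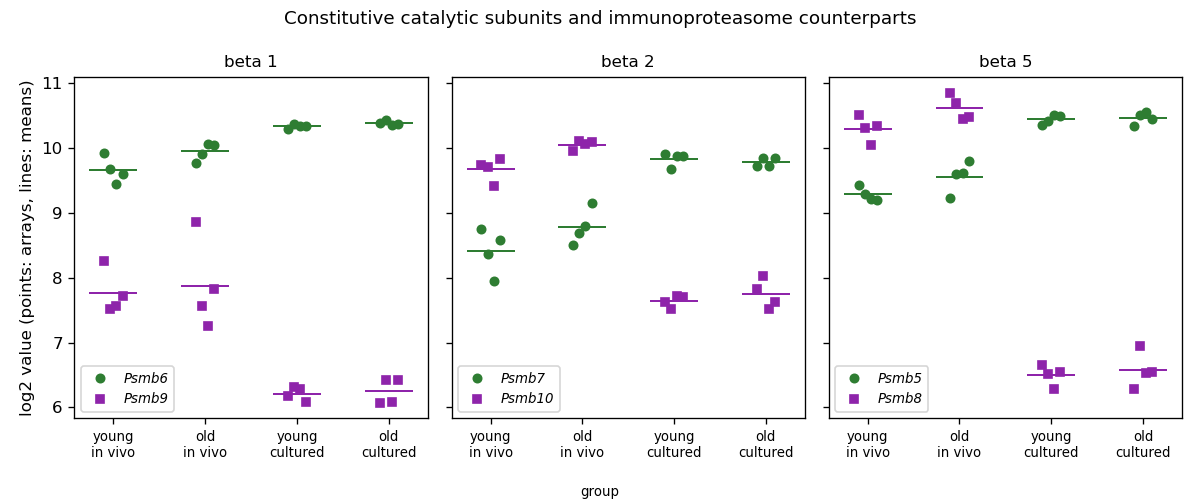
Each panel shows a constitutive catalytic subunit and its immunoproteasome counterpart, Psmb6 with Psmb9, Psmb7 with Psmb10 and Psmb5 with Psmb8, as the log2 level on each array by group. Within each panel the constitutive gene is higher and the counterpart lower in culture, as with Psmb5 (1.03) and Psmb8 (-3.92); levels of different probe sets are not comparable with each other.

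Genes that build and serve the complex rose in most cases. Averaged over ages, 34.8% of all genes rose, and 54.9% of those in the level range of the members. Of 5 chaperones of 20S assembly, 4 rose in culture averaged over ages, with 0.95 for Psmg1, 1.12 for Psmg2, 0.98 for Psmg3 and 0.75 for Pomp, and Psmg4 did not pass (0.09, limma, adjusted p = 0.418). All 5 measured proteasome-bound enzymes and factors rose. Uchl5, a deubiquitinase of the base, rose by 2.53 ± 0.09, and Txnl1, a thioredoxin-like protein bound to the particle, by 2.08 ± 0.15. Usp14, the other deubiquitinase, rose by 3.28 ± 0.14, and since its mean in young in vivo cells, 4.16, lay below the spike-in limit of 4.34, this change is an underestimate if anything. Of 4 measured ubiquitin shuttles, which carry substrates to the particle, Rad23b rose by 1.91, Ubqln1 by 1.48 and Ubqln4 by 1.001, and Ubqln2 did not pass (0.15, adjusted p = 0.105). Sem1, the small lid subunit outside the list, rose by 0.72. Nfe2l1, the transcription factor that drives proteasome genes when the proteasome is impaired, changed little: it rose by 0.27 ± 0.08 (limma, adjusted p = 0.00806). Ngly1, the enzyme that removes glycans from it, rose by 0.35, and Nfe2l2 did not pass (0.13, limma, adjusted p = 0.244). Within ages, Nfe2l2 passed in young cells (0.38, adjusted p = 0.0274) and not in old cells (-0.12), while Nfe2l1 and Ngly1 passed in old cells only. The interaction passed for none of these 3 genes. None of these genes passed for age in either condition.

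Other probe sets of the members were read as a check. For 11 members a further 18 probe sets were named, and the 7 of these with a mean level above 5 were all higher in culture, by 0.89 to 1.75. Age and interaction estimates depended on the probe set for some genes. The second probe set of Psmb3 gave 0.67 for age in vivo and -0.725 for the interaction, against 0.24 and -0.22. Another of Psmd11 gave -0.285 for age in culture and -0.58 for the interaction, against -0.095 and -0.385. For Psma7 the interactions were close, -0.43 and -0.415. The other 11 probe sets, with a mean at or below 5, changed by -0.46 to 0.34, and 7 of them were lower in culture. Those 7 include probe sets of Psmd4 (mean 4.71), Psmd7 (4.63 and 4.77) and Psmd9 (4.85), which lay above the spike-in limit of 4.34. Setting each array to its 75th percentile shifted the all-gene median of the culture change averaged over ages by -0.20 and the members' median from 0.93 to 0.73. Cyclic loess shifted the former the other way, by 0.06, and brought the members' median to 0.64. Under those scalings 31 or more of the 32 members still rose averaged over ages.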

How the data were processed

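Gene expression was measured on 16 Affymetrix arrays, 4 in each of 4 groups taken from the labels. The deposited values are log2 intensities made by the authors with RMA in affy, per the submitters' processing notes, which state neither versions nor the log base. The base was read from the range of the values, and whether all arrays were normalized together is not stated. Of 45141 probe sets, 28898 had 1 gene symbol, 551 had several and 15692 had none here. Each gene was read from its probe set of highest mean. Genes above 3.87, the 25th percentile, on at least 4 arrays were tested with limma 3.58.1 in R 4.3.3, with Benjamini-Hochberg adjustment over all 14819 genes and a threshold of 0.05. Culture and interaction were fitted on all 16 arrays, and age on the 8 arrays of each condition, whose spreads differ. The fit was tested on simulated data.

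Values on every array are given for the 2 largest and the 2 smallest culture changes of each role with 6 or more genes, for all members of smaller roles and for the catalytic subunits. The rule also took members past the threshold for age or the interaction, of which there were none. The members and lists were chosen with earlier results of these data known. No pair of arrays held identical values. The p-values measure the spread between arrays within a group, in which mouse, collection day, isolation and amplification cannot be told apart. The fits of culture and interaction treat the fresh and cultured arrays of a mouse as independent. Alternatives were scaling to the 75th percentile, cyclic loess, other filters and probe set rules, array weights, a trended and robust fit, a shared spread, and leaving out each array. Promoter sequences are from RefSeq, and protein sequences were not used here.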

Additional observations from a re-analysis of the deposited data

Results flagged for a closer look

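Of 128 combinations of a member with a group of 4 arrays, 6 held 1 array far from the other 3 by Dixon's criterion at 95%, which chance meets in about 1 in 20 groups. Psma1 was low in young cultured replicate 3, at 10.1 against 10.24 in the nearest array, and Psmc2 was low in the same array, at 10.84 against 10.92. Psmc2 was also low in old cultured replicate 4, at 10.76 against 10.87. Psmb7 was low in young cultured replicate 2, at 9.68 against 9.87. Psma7 was high in old cultured replicate 2, at 10.36 against 10.22. Psmd5 was low in old in vivo replicate 1, at 7.09 against 7.65, in the array with the high keratinocyte marker sum of 1443.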

How the results depend on the processing

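The rise of the members in culture averaged over ages held in direction in all 800 combinations of a member and an alternative, and passed the threshold in 799. The exception was Psmb4 after cyclic loess (0.10, adjusted p = 0.0728). The members' median moved most under scaling: to 0.86 (75th percentile) and 0.77 (cyclic loess) in young cells, to 0.63 and 0.53 in old cells, and to 0.73 and 0.64 averaged. The number of members past the threshold for age in vivo was 0, and became 1 with array weights by condition (Psma1) and 7 with the spread shared over all 16 arrays. For the interaction it was 0, and became 1 (Psma1) with cyclic loess, with array weights, with a trended and robust fit, without young in vivo replicate 1, without old in vivo replicate 1, and with the in vivo array of each age that correlated least left out, an alternative chosen after seeing the data. Leaving out 1 array at a time thus gave 0 to 1. The lowest adjusted p of the interaction ranged from 0.0269 to 0.141 over the alternatives. Some estimates of age and interaction turned in sign. For age in vivo, Psmd2 was -0.097 to 0.097 when 1 array was left out and above 0 without young replicate 1 (0.028) or old replicate 1, and it was 0.04 without both least correlated arrays. Psmd8 was -0.0833 to 0.027 and above 0 without old replicate 2, old replicate 3 (0.017) or young replicate 3 (0.014). For age in culture, Psmd13 was -0.025 to 0.175, with the lowest value without young replicate 1, and over all members the number above 0 ran from 8 to 17. For the interaction, Psmd2 was -0.054 to 0.139, with the lowest value without old in vivo replicate 1, and Psmd8 became 0.0125 with 75th percentile scaling and 0.018 with cyclic loess. The cause was not tested. No paired analysis was possible because the labels do not say which in vivo and cultured samples share a mouse. Member signals lay above the controls in every group.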
